A study of Mus musculus with 3 samples.

Results

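B lineage genes, the genes that mark B lymphocytes from their earliest precursor to the antibody-secreting plasma cell, were followed by maturation stage in sorted myeloid cells of mice. Their 34 members were taken by mouse symbol, and 33 of them had a row among the 19723 genes of the count table. Rag2 had a row in the table of FPKM values (depth-scaled fragments for each kilobase of a gene) and none in the count table. The members comprised 5 early B genes, 1 gene of the pre-B to immature stage (Vpreb3), 24 genes grouped here as mature and 4 plasma cell genes. All were sought in 3 RNA sequencing libraries, each a pool with no replicate. The alisertib library was made from myeloid-derived suppressor cells (MDSCs, immature myeloid cells that restrain T cells) of 20 tumours from tumour-bearing mice treated with alisertib, which blocks the mitotic kinase Aurora A. MDSCs of 20 tumours from control mice gave the control library. The labels call these controls untreated in 1 place and control treated in another, so whether they received a vehicle is not known. Neutrophils of the bone marrow of 5 wild-type mice gave the bone marrow library. All mice were female BALB/c of 6 to 8 weeks. Cells were sorted to a purity above 90% per the labels. The sources used here do not give the surface markers of the sort, the tumour line, the dose or the schedule.

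B cells form in bone marrow in ordered steps. The RAG proteins cut and join the gene segments of the antibody heavy chain, terminal transferase adds bases at the joints, and the new heavy chain is tested at the surface with a surrogate light chain built from VpreB and lambda5, the products of Vpreb1 and Igll1. When a true light chain replaces the surrogate, the cell carries IgM, leaves the marrow, and adds IgD and surface receptors such as CD21 and CD23 in the periphery. Plasma cells, the end stage, secrete antibody joined by the J chain. A myeloid sort is not selected for any of these genes.

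Counts summed to 19373087 in the alisertib, 21959748 in the control and 21987097 in the bone marrow library. Levels are given as counts and as CPM, counts per 1000000 of the library size scaled by TMM (trimmed mean of M values). Ratios carry an exact (Clopper-Pearson) 95% interval that covers counting error only, so no difference below was tested over animals. Calls of higher or lower required the whole interval to lie beyond 2-fold. A library with 0 counts of a gene was set to 3 counts for the fold, which is 0.145 CPM with alisertib, 0.154 CPM in control and 0.130 CPM in bone marrow, and such a fold is written as "at least". That fold takes the count of the other library as free of error, so it is larger than the exact lower bound of the fold. All 8 neutrophil markers examined, among them Ly6g, S100a8 and Csf3r, were detected in each library, with summed levels of 14718 CPM in the alisertib, 32161 in the control and 60410 in the bone marrow library. As these are bulk samples, fewer cells of a type and less RNA per cell cannot be told apart.

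The promoters of 4 members are shown to set genes at or near 0 counts in both tumour libraries, the surrogate light chain genes Vpreb1 and Igll1 and their relative Vpreb3, beside the receptor gene Cd79a, which was detected in all 3 libraries. Each run holds 250 bases before and 50 after the RefSeq start site, on the gene's own strand of GRCm38.p6. Capitals mark the E-box CAGGTG or its reverse complement CACCTG, the octamer ATTTGCAT or its reverse complement ATGCAAAT, and the paired half-site CCCNNGGG, which reads alike on both strands. None of these marks overlaps another in the windows shown.
Vpreb1, chr16:16869206-16869505, minus strand: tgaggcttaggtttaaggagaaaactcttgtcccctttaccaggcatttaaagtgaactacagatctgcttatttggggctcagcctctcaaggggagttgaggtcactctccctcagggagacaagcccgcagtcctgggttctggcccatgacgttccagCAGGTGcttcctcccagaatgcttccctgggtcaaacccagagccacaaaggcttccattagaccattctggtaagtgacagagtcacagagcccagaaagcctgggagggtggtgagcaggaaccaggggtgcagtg
Igll1, chr16:16863936-16864235, minus strand: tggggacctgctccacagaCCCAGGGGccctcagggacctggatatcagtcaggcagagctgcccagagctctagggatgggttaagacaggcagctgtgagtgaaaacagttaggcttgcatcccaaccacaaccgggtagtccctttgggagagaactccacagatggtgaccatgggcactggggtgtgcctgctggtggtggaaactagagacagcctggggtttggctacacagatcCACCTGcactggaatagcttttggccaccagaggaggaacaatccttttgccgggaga
Vpreb3, chr10:75948050-75948349, plus strand: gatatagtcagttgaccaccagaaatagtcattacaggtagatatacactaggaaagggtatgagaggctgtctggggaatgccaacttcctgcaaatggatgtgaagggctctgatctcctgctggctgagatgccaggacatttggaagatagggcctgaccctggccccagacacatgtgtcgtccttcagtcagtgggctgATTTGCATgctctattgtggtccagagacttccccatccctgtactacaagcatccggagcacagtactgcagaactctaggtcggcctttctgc
Cd79a, chr7:24897247-24897546, plus strand: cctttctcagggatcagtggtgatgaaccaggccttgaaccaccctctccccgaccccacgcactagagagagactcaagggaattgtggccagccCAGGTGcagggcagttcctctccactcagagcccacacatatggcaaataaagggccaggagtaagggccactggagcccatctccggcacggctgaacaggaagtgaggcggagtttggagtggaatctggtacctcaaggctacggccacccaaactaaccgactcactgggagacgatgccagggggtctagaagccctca
The E-box is bound by E proteins such as E2A, the octamer by OCT factors with their coactivator from Pou2af1, and the half-site pair resembles the EBF1 site. The E-box began 88 bases before the start site in Vpreb1, 8 before it in Igll1 and 154 before it in Cd79a, and the octamer 45 before it in Vpreb3. Promoter windows were found for 24 of the 34 members, 28 windows in all. An E-box of these letters was in 14 of the 28, against 20.2% of 32851 windows of the same length. The half-site pair was in 5 of the 28, against 13.7% of all windows, and the octamer in 2 (Vpreb3 and Blnk), against 1.74%. A match describes the letters only.

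Early B genes were detected in the bone marrow library and were at or near 0 in both tumour libraries. Vpreb1 had 0 counts in the alisertib library, 0 in the control library and 21 in the bone marrow library. Igll1, the lambda5 gene, had 0, 0 and 38 counts in the same order. Both lie on chromosome 16 of GRCm38 (Vpreb1 at 16868403 to 16870843, Igll1 at 16860671 to 16863985, minus strand), with 4417 bases between them. The recombinase gene Rag1 had 4 counts in the alisertib library, 0 in the control library and 150 in the bone marrow library. Dntt, which encodes terminal transferase, had 0, 0 and 33 counts in that order. Bone marrow was thus the sole library with more than 4 counts of any early gene. Rag2, the partner of Rag1, was listed at 0 FPKM in both tumour libraries and at 0.138 FPKM in bone marrow.

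Rag1 was 33.7-fold lower in the alisertib than in the bone marrow library (12.9 to 125) and at least 42.3-fold lower in the control library. Igll1 was at least 11.4-fold lower in the alisertib and at least 10.7-fold lower in the control library than in bone marrow. Dntt was at least 9.90-fold and 9.31-fold lower, and Vpreb1 at least 6.30-fold and 5.93-fold lower, in the alisertib and control libraries against bone marrow. The 4 counted early genes summed to 4 counts in the alisertib, 0 in the control and 242 in the bone marrow library. Their sum in the alisertib library rests on Rag1 and is 0 without it. Vpreb3, a gene of pre-B and immature B cells related to Vpreb1, followed the same order, with 5 counts in the alisertib, 0 in the control and 109 in the bone marrow library. It was 19.6-fold lower in the alisertib library (8.15 to 61.6) and at least 30.8-fold lower in the control library than in bone marrow. The exact lower bound in control was 24.6-fold. Between the tumour libraries no difference in these genes was detectable at this depth: Vpreb1, Igll1 and Dntt were at 0 counts in both, and the interval for Rag1 reached down to a ratio of 0.621.

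**Figure D1:**
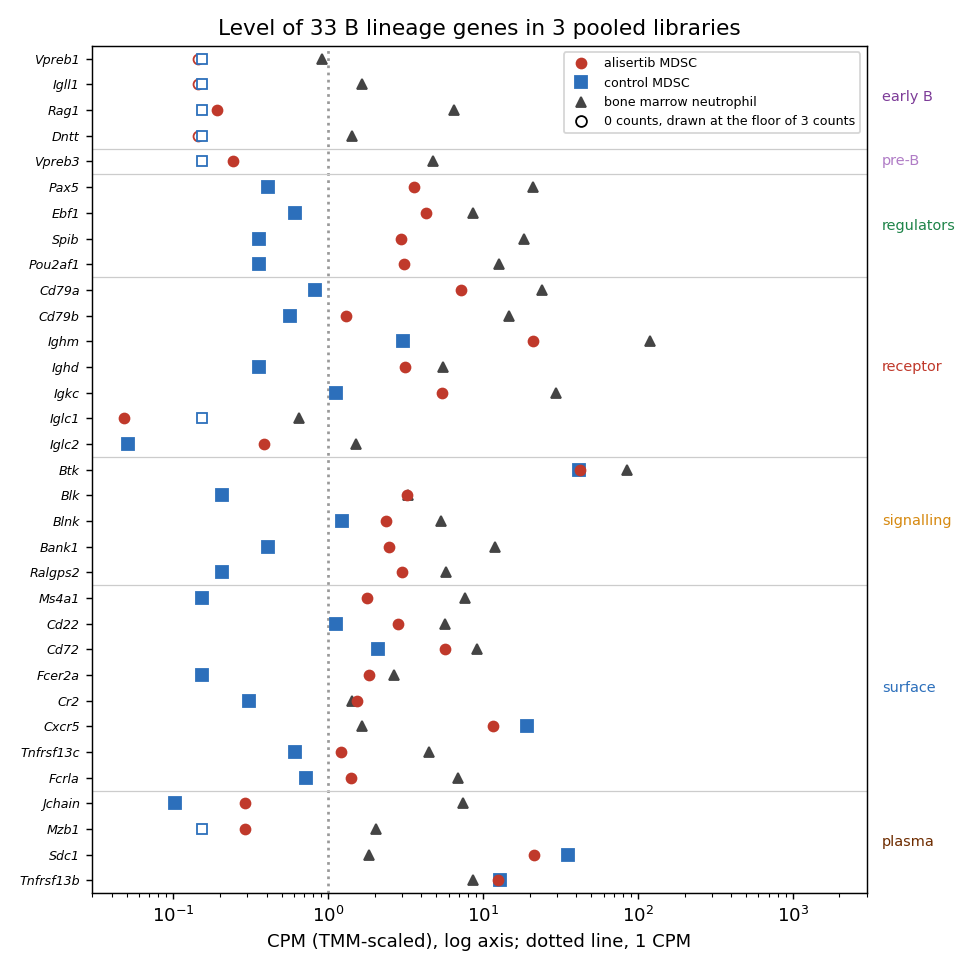
Level of the 33 counted B lineage genes in CPM (log axis) in the alisertib (circles), control (squares) and bone marrow (triangles) libraries, 1 pooled library each, grouped by stage or role. Open symbols mark 0 counts, drawn at the floor of 3 counts. Early B genes stand at or near the floor in both tumour libraries, while in most mature genes the alisertib library lies above control and below bone marrow.

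Genes grouped here as mature were mostly higher in the alisertib than in the control library. The group holds all members outside the early and plasma cell lists except Vpreb3. It includes regulators of B lineage entry such as Ebf1 and Pax5, so not every gene in it marks a mature B cell. Of 31 members with at least 1 CPM in any library, 14 were called higher with alisertib and 0 lower, against 1.80% of 13019 genes called higher and 1.18% called lower. All 31 passed that minimum in the bone marrow library, which is not part of this comparison, and 9 passed it in the control library. The other 2 counted members, Vpreb1 and Iglc1, were not called. All 14 were among the 23 mature genes past the minimum, and neither the 3 early nor the 4 plasma cell genes past it held a call. Igll1 and Dntt had 0 counts in both tumour libraries. Rag1 had 4 counts with alisertib and 0 in control, Jchain 6 and 2, and Mzb1 6 and 0. These counts were too few for a call, so its absence there is no contrast by stage. Over all 33 counted members the median log2 ratio was 2.23, and 1.32 when the bound stood in for genes at 0 counts, while the median of the 13019 genes was 0.0014. Levels stayed low: 24 members reached 1 CPM in the alisertib library.

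The regulators of B cell identity moved alike. Pax5, which commits a cell to the B lineage, had 74 counts in the alisertib, 8 in the control and 487 in the bone marrow library. It was 8.70-fold higher with alisertib than in control (4.20 to 20.9). Ebf1, the factor that opens the B cell programme, had 89, 12 and 199 counts in that order and was 6.98-fold higher (3.80 to 14.0). The ETS factor gene Spib, also active in plasmacytoid dendritic cells, had 61, 7 and 426 counts, a ratio of 8.20 (3.75 to 21.3). Pou2af1, the coactivator of the octamer site, had 64, 7 and 292 counts, a ratio of 8.60 (3.94 to 22.3). In each of these genes the alisertib library lay between the control library, the lowest, and bone marrow, the highest.

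The antigen receptor genes held the most abundant members. Ighm, the IgM heavy chain (chromosome 12, 113418558 to 113422730, minus strand), had 437 counts in the alisertib, 59 in the control and 2754 in the bone marrow library. Its level was 21.1, 3.02 and 119 CPM in those libraries, a ratio of 6.97 between alisertib and control (5.30 to 9.31). Ighd, the IgD heavy chain that lies 2233 bases from Ighm and is spliced from the same transcript, had 65, 7 and 127 counts and was 8.74-fold higher with alisertib (4.01 to 22.6). Igkc, the kappa light chain, had 112, 22 and 682 counts and a ratio of 4.79 (3.01 to 7.95). All 3 were called higher with alisertib.

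Cd79a and Cd79b encode the paired signalling chains of the receptor and differed in their ratio of alisertib to control. Cd79a (chromosome 7, 24897381 to 24902197, plus strand) had 149 counts in the alisertib, 16 in the control and 552 in the bone marrow library, and was 8.76-fold higher with alisertib (5.22 to 15.7). Cd79b (chromosome 11, 106311341 to 106314762, minus strand) had 27, 11 and 340 counts, a ratio of 2.31 (1.11 to 5.16), and was not called. The lambda genes were too few to compare: Iglc2 had 8, 1 and 35 counts, a ratio of 7.53 between alisertib and control (1.01 to 334), and Iglc1 had 1, 0 and 15. Iglc2 shares 95.1% of its aligned transcript bases with Iglc3, so its reads are uncertain. Iglc1 shares 68.4% with Iglc2 and 76.2% with Igll1.

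**Figure D2:**
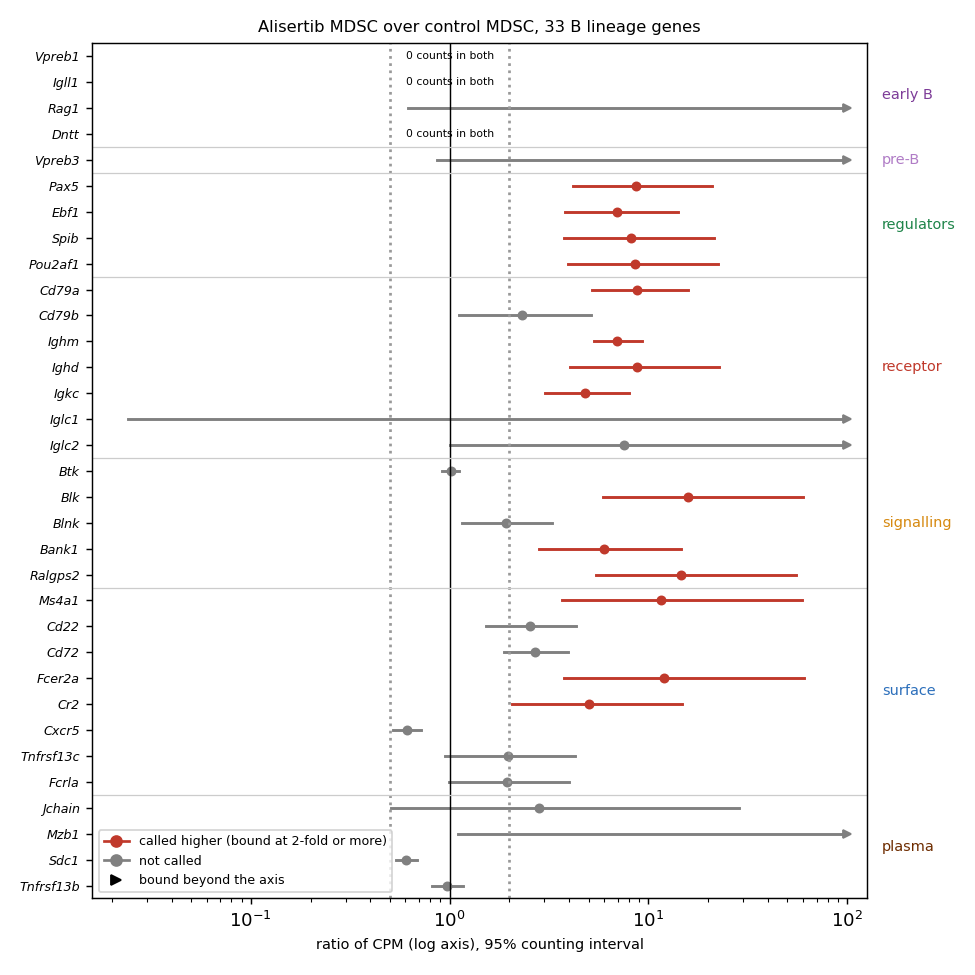
Ratio of CPM of the alisertib over the control library (log axis) for the 33 counted B lineage genes, with exact 95% counting intervals; red marks genes called higher, grey those not called, and dotted lines stand at 2-fold either way. The 14 red intervals lie wholly above 2-fold, and Cxcr5 and Sdc1 lie below 1.

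Of 5 signalling genes, 3 were called higher with alisertib. Blk, a Src family kinase of B cells, had 67 counts in the alisertib, 4 in the control and 75 in the bone marrow library, a ratio of 15.8 between alisertib and control (5.88 to 59.5). Ralgps2, an exchange factor for Ral proteins, had 62, 4 and 132 counts and a ratio of 14.6 (5.42 to 55.2). The adaptor gene Bank1 had 51, 8 and 277 counts and a ratio of 6.00 (2.83 to 14.6). Blnk, the adaptor that links the receptor to its kinases, was 1.92-fold higher (1.16 to 3.27) and not called. Btk, a kinase of B cells that myeloid cells also use, stood at 42.4 CPM with alisertib and 41.8 CPM in control, a ratio of 1.01 (0.920 to 1.12).

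Surface genes of the mature group were split. Ms4a1, which encodes CD20, had 37 counts in the alisertib, 3 in the control and 176 in the bone marrow library, a ratio of 11.6 between alisertib and control (3.67 to 58.8). Fcer2a, which encodes CD23, had 38, 3 and 61 counts and a ratio of 11.9 (3.78 to 60.4). Cr2, which encodes the complement receptor CD21, had 32, 6 and 33 counts and a ratio of 5.02 (2.07 to 14.7), a call that was lost with DESeq2 size factors. CD21 and CD23 appear on B cells after the immature stage. The inhibitory receptor gene Cd22 (2.52-fold, 1.52 to 4.33) and Cd72 (2.69-fold, 1.87 to 3.93) had intervals above 1 but were not called, although Cd72 was called with total counts. Fcrla (1.95-fold, 0.997 to 3.99) and Tnfrsf13c, the receptor for the survival factor BAFF (1.96-fold, 0.949 to 4.28), were not called. Cxcr5, the chemokine receptor that leads B cells to follicles, ran the other way, at 242 counts with alisertib, 373 in control and 38 in bone marrow, a ratio of 0.611 between alisertib and control (0.517 to 0.720).

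Summed over the 24 mature genes, counts were 2775 in the alisertib, 1481 in the control and 9387 in the bone marrow library. The ratio of alisertib to control was 1.76 (1.66 to 1.88). Btk alone held 817 of the control counts, and without it the ratio was 2.69. Without Btk and Cxcr5, a choice made after their values were seen, the sums were 1653, 291 and 7389 counts and the ratio was 5.35. Over bone marrow the ratio of the 24-gene sum was 0.329 in the alisertib library (0.315 to 0.343) and 0.186 in the control library (0.176 to 0.197). The control ratio was 0.106 without Btk.

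Several T cell genes in a list of T and NK cell markers were also higher in the alisertib library. Of 16 listed, 13 passed the 1 CPM minimum, and 9 of these were called higher with alisertib and 0 lower, against 1.80% and 1.18% of all genes. The summed level of the 16 was 64.5 CPM with alisertib and 21.2 CPM in control. Cd3e, a chain of the T cell receptor complex, had 98 counts in the alisertib, 17 in the control and 2 in the bone marrow library, and Trac, the receptor alpha chain, had 52, 13 and 0. Cd3d ran otherwise, with 129, 170 and 3143 counts. The NK cell genes were not higher with alisertib than in control: Ncr1 had 0, 3 and 13 counts, Klrb1c 0, 0 and 1, and Nkg7 10, 14 and 85. Of the list, 2 genes were at 0 counts in the alisertib library, 1 in the control and 1 in bone marrow. Bone marrow summed to 147 CPM for this list, mostly Cd3d. Of the 8 neutrophil markers summed above, 3 were called lower with alisertib than in control (S100a8, S100a9 and Retnlg), against 1.18% of all genes, and the first 2 make up most of that sum. Mmp9 ran the other way, at 1411 CPM with alisertib and 1137 CPM in control, a ratio of 1.24 (1.22 to 1.26). Macrophage markers summed to 566 CPM with alisertib and 594 in control, epithelial markers to 17.6 and 16.3, and megakaryocyte markers to 10.2 and 8.96. The macrophage sum hides a split, though none of its 7 genes was called. C1qa (1.48, 1.30 to 1.67), C1qb (1.43), C1qc (1.55) and Mrc1 (1.88, 1.54 to 2.32) had intervals above 1. Cd68, at 289 CPM with alisertib and 345 in control, had a ratio of 0.838 (0.809 to 0.868). The intervals of Csf1r and Adgre1 held 1. Siglech, a defining marker of plasmacytoid dendritic cells, had 0 counts in both tumour libraries and 51 in bone marrow. The 7 counted genes of that list still summed to 104 CPM in each tumour library and 93.2 CPM in bone marrow. That sum also hides a split, though none of the 7 was called between the tumour libraries. Bst2 (ratio of alisertib to control 1.70, 1.53 to 1.90), Ccr9 (2.72, 1.59 to 4.86) and Pacsin1 (4.03, 1.74 to 10.9) had intervals above 1. Runx2 had a ratio of 0.676 (0.620 to 0.737), and the intervals of Tcf4 and Cox6a2 held 1. The part of these cell types in the B gene difference was not tested.

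Set against bone marrow, most members were lower in both tumour libraries, and mature genes lay nearer to bone marrow in the alisertib than in the control library. Both comparisons use the same bone marrow library, and each member passed the 1 CPM minimum through it, so the counts of calls are a description. In the alisertib library 17 of 31 members were called lower and 2 higher than in bone marrow, where 22.3% and 18.7% of 13019 genes were called lower and higher. In the control library 26 were called lower and 2 higher than in bone marrow, where 22.9% and 18.3% of all genes were. With no minimum, 19 of 33 members were lower in the alisertib and 28 of 33 in the control library, against 16.2% and 16.8% of 18839 genes, and 2 of 33 were higher in each, against 14.3% and 13.8%. Over the 33 counted members the median log2 ratio to bone marrow was -2.03 for the alisertib and -4.65 for the control library. With the bound in place of genes at 0 counts the control median was -3.83. Medians over all 13019 genes were -0.09 for alisertib and -0.14 for control.

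Ranked by the ratio of alisertib to bone marrow, Sdc1, Cxcr5 and Tnfrsf13b stood highest (given below). Other genes of the mature group followed, and the early genes stood last. Cr2 (ratio 1.08, 0.642 to 1.81) and Blk (0.993, 0.703 to 1.40) stood at the bone marrow level within counting error, and the interval of Fcer2a also held 1 (0.692, 0.449 to 1.05). Cd72 (0.619), Ighd (0.569), Ralgps2 (0.522), Cd22 (0.501), Ebf1 (0.497) and Blnk (0.443) came next, none of them called, and the intervals of neighbours in this order overlapped. Cd79a was 3.33-fold lower in the alisertib library than in bone marrow (2.78 to 4.02), Tnfrsf13c 3.71-fold (2.38 to 5.99), Pou2af1 4.11-fold, Ms4a1 4.28-fold (2.99 to 6.28), Bank1 4.89-fold and Fcrla 4.93-fold. Igkc was 5.48-fold lower (4.48 to 6.75), Ighm 5.67-fold (5.12 to 6.29), Pax5 5.92-fold (4.63 to 7.67), Spib 6.28-fold (4.80 to 8.36) and Cd79b 11.3-fold (7.65 to 17.4). Iglc2 (ratio 0.254, 0.102 to 0.557, not called) lay among these, and Iglc1 was 13.5-fold lower (2.08 to 568). At the far end stood Vpreb3, Jchain and the early genes. Vpreb1, Dntt and Igll1 stood last by their 0 counts, with upper limits of 0.213, 0.131 and 0.113. These limits reach into the intervals of mature genes such as Cd79b (0.0573 to 0.131), so their order against those genes is not settled.

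In the control library the same genes lay further below bone marrow. Cr2 was 4.66-fold below (1.93 to 13.6, not called), Blk 15.9-fold (5.95 to 59.8) and Fcer2a 17.2-fold (5.62 to 85.8). Ighm was 39.5-fold lower (30.5 to 52.1), Cd79a 29.2-fold (17.8 to 51.5) and Pax5 51.5-fold (26.0 to 120). Lowest among the genes with a count were Jchain (72.4-fold, 19.7 to 603), Pax5 and Spib (51.5-fold, 24.8 to 129). Cxcr5 was an exception in both tumour libraries, 7.08-fold higher with alisertib (5.01 to 10.2) and 11.6-fold higher in control (8.29 to 16.6) than in bone marrow. Btk had a ratio to bone marrow of 0.499 (0.460 to 0.541) in the alisertib and 0.492 (0.453 to 0.534) in the control library, neither called, although the control difference was called with total counts, as was that of Cr2.

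**Figure D3:**
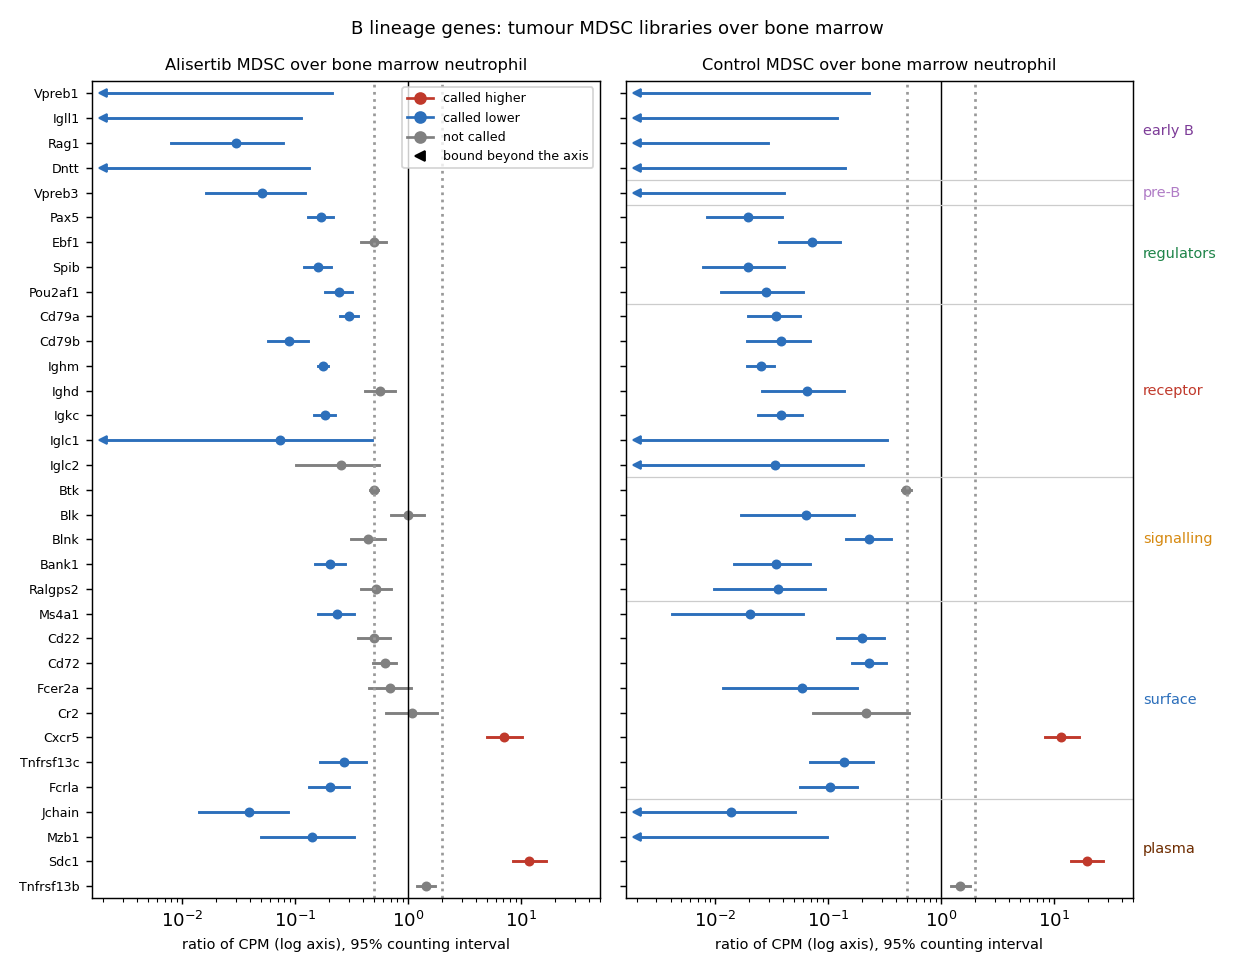
Ratio of CPM to the bone marrow library (log axis) for the 33 counted B lineage genes in the alisertib library (left) and the control library (right), with exact 95% counting intervals; arrowheads mark bounds beyond the axis. Cr2 and Blk stand near 1 on the left and below 1 on the right, and the early genes lie far to the left in both panels.

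Early genes made up a smaller share of the B lineage counts in the tumour libraries than in bone marrow. Of the summed early and mature counts, early genes were 0.144% in the alisertib library (4 of 2779, exact interval 0.0392 to 0.368%). The control library had 0 of 1481, which allows a share of up to 0.203% by the floor of 3 counts and has an exact upper limit of 0.249%. In bone marrow the share was 2.51% (242 of 9629, 2.21 to 2.85%). Without Rag1 it was 0.971% in bone marrow and 0 in the alisertib library, with FPKM sums 1.57% in bone marrow, and without immunoglobulin constant genes 4.02% there. Without Btk and Cxcr5 the share was 0.241% with alisertib (4 of 1657), the 0 of 291 in control had an exact upper limit of 1.26% (1.03% by the floor of 3 counts), and bone marrow had 3.17% (242 of 7631). The bone marrow library also held more counts of other precursor cells: 5 neutrophil precursor genes, such as Mpo and Elane, summed to 7.03 CPM in the alisertib, 5.73 in the control and 136 in the bone marrow library, and 4 erythroid genes to 4.91, 6.19 and 71.0 CPM. The part of the tissue of origin in the early gene difference cannot be told apart from that of the cell type sorted.

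The balance of IgD to IgM, examined after its values were seen, differed as well. Ighd made up 12.9% of the Ighd and Ighm counts in the alisertib library (65 of 502, 10.1 to 16.2%), 10.6% in the control library (7 of 66, 4.37 to 20.6%) and 4.41% in bone marrow (127 of 2881, 3.69 to 5.22%). The intervals of the alisertib and bone marrow libraries did not overlap, whereas that of the control library overlapped both. IgD is carried by mature naive B cells and is absent from the earlier stages. The kappa share of the light chain counts, Igkc against Iglc1 and Iglc2, was alike in all libraries, at 92.6% with alisertib (86.4 to 96.5%), 95.7% in control (78.1 to 99.9%) and 93.2% in bone marrow (91.1 to 94.9%).

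**Figure D4:**
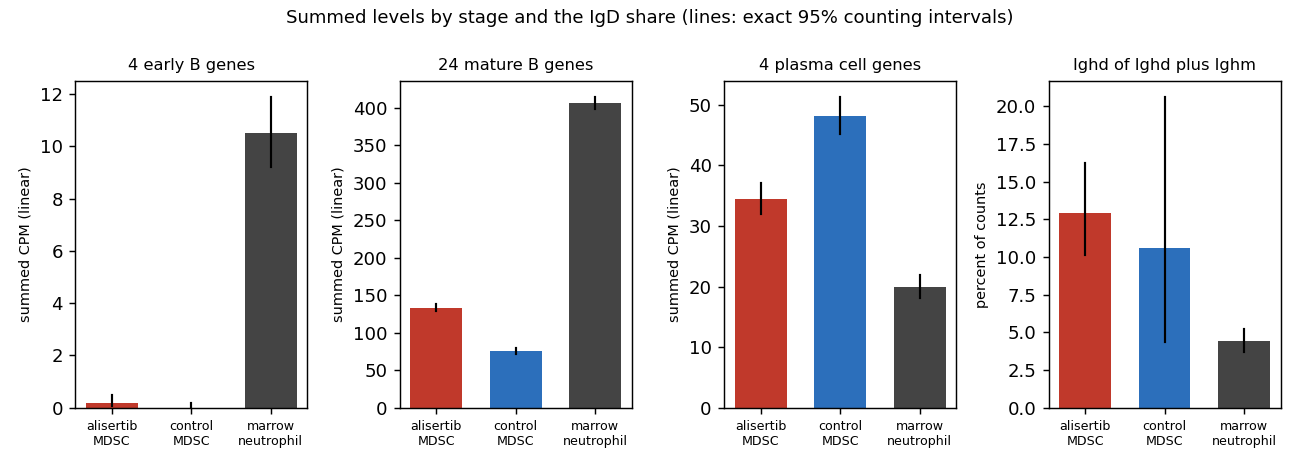
Summed CPM (linear axes from 0) of the 4 counted early, 24 mature and 4 plasma cell genes, and Ighd as a percent of Ighd and Ighm counts, by library, with exact 95% counting intervals as lines. Early genes stand at 0.193 CPM in the alisertib library, 0 in the control library and 10.5 CPM in bone marrow, and the IgD share is 12.9% with alisertib, 10.6% in control and 4.41% in bone marrow.

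Counts of antibody variable genes were spread over many genes. Of 130 variable genes in the count table (Ighv, Igkv and Iglv), 50 had a count in the alisertib library, 16 in the control library and 107 in bone marrow. Their summed counts were 146, 31 and 1383 in that order. The sum was 4.43-fold higher with alisertib than in control (2.99 to 6.76) and 8.52-fold lower with alisertib than in bone marrow (7.18 to 10.2). The most counted gene held 8.22% of the sum in the alisertib library (Igkv3-7, 12 counts), 19.4% in control (Ighv1-63, 6 counts) and 13.0% in bone marrow (Igkv15-103, 180 counts). Variable genes have close copies, so the gene assigned to a read is uncertain.

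Plasma cell genes did not behave as a group. Jchain, the joining chain of secreted IgM and IgA, had 6 counts in the alisertib, 2 in the control and 171 in the bone marrow library, 25.6-fold lower with alisertib than in bone marrow (11.5 to 70.9). Between alisertib and control its ratio was 2.82 (0.505 to 28.6). Mzb1, a chaperone of antibody assembly, had 6, 0 and 47 counts, and was 7.05-fold lower with alisertib than in bone marrow (3.01 to 20.2). Igha, the IgA heavy chain and no member of the set, had 3, 2 and 186 counts, 55.8-fold lower with alisertib than in bone marrow (18.8 to 273). These 3 genes of antibody secretion were thus highest in bone marrow.

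The other plasma cell genes ran otherwise. Sdc1, which encodes syndecan-1 and is also a gene of epithelial cells, had 444 counts with alisertib, 689 in control and 42 in bone marrow, and was 11.7-fold higher with alisertib than in bone marrow (8.55 to 16.5). Tnfrsf13b, the TACI receptor, had 259, 250 and 200 counts, a ratio of 0.975 between alisertib and control (0.816 to 1.16). Summed, the 4 genes gave a ratio of 0.715 between alisertib and control (0.648 to 0.789), 1.73 between alisertib and bone marrow and 2.42 between control and bone marrow. Without Sdc1 these ratios were 1.01, 0.720 and 0.712, so the direction of each sum rested on that gene. Most of the tumour counts that remained were those of Tnfrsf13b. Jchain and Mzb1 alone, a choice made after the values were seen, summed to 12, 2 and 218 counts. Their ratio of alisertib to control was 5.65 (1.26 to 51.9), on few counts. Among switched heavy chains, Ighg1 had 32 counts with alisertib, 0 in control and 50 in bone marrow. Its level was at least 10.04-fold higher with alisertib than in control, with an exact lower bound of 7.70-fold. The other counted ones were not called between them: Ighg2b had 3, 1 and 46 counts, Ighg2c 2, 3 and 3, and Ighg3 2, 1 and 30, in the order alisertib, control, bone marrow, and Igha is given above. Switched chains together were 7.72% of heavy chain constant counts with alisertib (5.62 to 10.3%), 9.59% in control (3.94 to 18.8%) and 9.86% in bone marrow (8.84 to 10.9%), and these intervals overlapped.

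Per length, as deposited FPKM values, the leading members differed between libraries. In the alisertib library Btk (13.1 FPKM), Ighm (10.8) and Igkc (9.85) had the highest levels. In control they were Btk (12.9 FPKM), Sdc1 (9.02) and Cxcr5 (6.59), and in bone marrow Ighm (62.6 FPKM), Igkc (55.0) and Btk (26.7). The genes that led in the control library were thus those that did not follow the other members.

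A wider list of B lineage genes, none of them members, held 39 genes in the count table, of which 38 passed the minimum. With alisertib 5 were called higher than in control and 1 lower, against 1.80% and 1.18% of all genes, so that the 1 lower is near the background. H2-Ob, a modulator of antigen loading in B cells, had 55 counts in the alisertib, 9 in the control and 91 in the bone marrow library, a ratio of 5.75 between alisertib and control (2.82 to 13.2). Lef1 (32.6-fold, 14.7 to 89.9) and the homing receptor gene Ccr7 (6.49-fold, 4.77 to 9.01) were higher as well, and T cells express both. Xbp1, which drives secretion in plasma cells and the stress response of many cells, was the gene called lower, 2.40-fold (2.33 to 2.47).

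Against bone marrow, 15 genes of the wider list were called lower and 7 higher in the alisertib library, where 22.3% and 18.7% of all genes were. In the control library 18 were called lower and 7 higher, where 22.9% and 18.3% of all genes were. The counts called higher were thus near the background in both. Among those lower with alisertib than in bone marrow were the progenitor factor genes Myb (24.9-fold, 17.0 to 38.1) and Erg (14.0-fold, 11.3 to 17.5), Stap1 (10.6-fold) and the phospholipase gene Plcg2 (9.21-fold). In the control library Myb (57.6-fold, 32.0 to 116), Stap1 (16.9-fold) and the Ikaros gene Ikzf1 (14.4-fold) were lower than in bone marrow. Prdm1, a driver of plasma cell fate that other leukocytes also use, was 56.2-fold higher with alisertib (37.6 to 88.0) and 40.6-fold higher in control (27.1 to 63.7) than in bone marrow. Higher in both were also the adaptor gene Pik3ap1 (11.3-fold with alisertib, 14.7-fold in control) and Xbp1 (3.81-fold with alisertib, 9.15-fold in control). Syk, a kinase shared by B and myeloid cells, was 2.43-fold higher in control than in bone marrow (2.39 to 2.47). Lef1 was 28.9-fold higher with alisertib than in bone marrow (14.4 to 67.8).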

How the data were processed

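RNA was sequenced from 3 pooled cell sorts, 1 library per group. Per the labels' protocols, cells were sorted on a FACSAria, RNA was taken with Trizol and library preparation used the NEBNext Ultra kit. Per the submitters' processing notes, the tools were CASAVA 1.8 and STAR 2.5.1b and the builds mm9 and mm10, listed with no role or order. Counting tool, annotation, strand setting and gene filter were not given in the sources used here, so overlapping genes and close copies are uncertain. The authors deposited raw read counts per Ensembl gene (19723 genes) and FPKM values (23327 genes).

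Symbols and GRCm38 positions came from GENCODE M21, which named 19648 of the 19723 genes. TMM factors (edgeR 4.0.16, R 4.3.3) were 1.07148, 0.88952 and 1.0492 in the order alisertib, control, bone marrow, with 17622, 17303 and 17349 genes detected. Genes with at least 1 CPM in 1 library or more were kept, 13019 in all. The log2 ratio used counts plus 0.5. Ratio intervals came from the exact binomial interval of the count split (scipy 1.17.1), and sums had exact Poisson intervals. Reads carry no molecular identifiers, so intervals and floors cover counting error only. The ratio procedure was tested on simulated counts. With 1 library per group no p-value was computed. Total counts, DESeq2 1.42.0 size factors, other filters, other folds and FPKM values served as alternatives.

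The members and lists were chosen with earlier results of these data known. Members were all described. Sums without Btk and Cxcr5, the sum of Jchain and Mzb1 alone and the IgD share were added after their values were seen. Of the wider list the text names the 4 called genes with the bound farthest from 1 in each comparison and direction, except 1 item that is not reported here. Switched heavy chains and variable genes were taken by symbol. Markers of fibroblasts and the pre-T gene Ptcra had no counts used here. Promoters are from RefSeq on GRCm38.p6, transcripts from GENCODE M21.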

Additional observations from a re-analysis of the deposited data

Results flagged for a closer look

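Rag2, which had no row in the count table and so entered no comparison, was listed at 0 FPKM in both tumour libraries and at 0.138 FPKM in the bone marrow library. Cr2 had a ratio to bone marrow of 1.08 in the alisertib library, whose interval of 0.642 to 1.81 holds 1, and of 0.215 in the control library, which was not called lower; it was picked out because the point values fall on opposite sides of 1. Both ratios share the bone marrow library, and the difference between them was not tested, as each group was 1 library.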

How the results depend on the processing

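Total counts in place of TMM shifted the log2 ratio of every gene by 0.27 between alisertib and control and by -0.24 between control and bone marrow, and the other scaling shifts were under 0.1 in size. Members called higher with alisertib over control numbered 14, and 13 to 16 with either other scaling, no filter or a 1.5-fold bound. They numbered 12 with a 3-fold bound and 21 with FPKM plus 0.1. The share of all genes called higher moved as well. It was 1.80% as reported, 3.29% with total counts, 1.59% with DESeq2 size factors and 1.5% with no filter. With the 1.5-fold bound it was 4.74%, and with the 3-fold bound 0.730%. Members called higher numbered 7 with the 10 CPM filter, which left 12 members to test, against 0.858% of all genes. With FPKM values members were counted by a point ratio of at least 2-fold, with no interval and no filter, which is not the rule above. By that count 21 of 34 members were higher with FPKM plus 0.1, against 8.35% of 23327 genes. With FPKM plus 1, which shrinks low ratios, 5 of 34 members were higher, against 0.913%. Members lower than in bone marrow numbered 8 of the 12 left by the 10 CPM filter in both the alisertib (17 of 31 before) and the control library (26 of 31 before). Of all genes 26.3% were lower with that filter in the alisertib library (22.3% before) and 25.4% in the control library (22.9% before).

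The summed mature genes gave a ratio of alisertib to control of 2.12 with total counts, 2.08 with FPKM sums and 2.69 without Btk. For alisertib over bone marrow it was 0.266 with FPKM sums and 0.284 without Btk, against 0.329 as reported. For control over bone marrow it was 0.158 with total counts, 0.197 with DESeq2 size factors, 0.128 with FPKM sums and 0.106 without Btk, against 0.186. The summed plasma cell genes gave 0.861 for alisertib over control with total counts, 1.18 for alisertib over bone marrow with FPKM sums, and 2.05 with total counts and 1.56 with FPKM sums for control over bone marrow. Without Sdc1 all 3 sums changed direction, to 1.01, 0.720 and 0.712. The early sum of alisertib over bone marrow and the early share in the alisertib library were 0 without Rag1. The early share in bone marrow was 1.57% with FPKM sums, 4.02% without immunoglobulin constant genes and 0.971% without Rag1. Unless stated, the cause was not tested. Early sums over the control library have no value, as it held 0 counts.

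No paired analysis was possible because each group was 1 library with no numbered replicate. Nor was there a replicate to leave out. Most members had under 100 counts in the tumour libraries; their intervals are wide for that reason.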
